A study of Mus musculus with 12 samples.

Results

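A set of 10 genes that cells switch on when oxygen is short was followed through the repair of skin wounds: Ddit4, Slc2a1, Car9, Bnip3, Egln3, Pgk1, Ldha, Pdk1, Ankrd37 and Adm. They were taken by name from the deposited expression tables, where they are 10 of 55487 listed genes. The rule is the list of names and holds no threshold on a measured value. The RNA came from full-thickness punch wounds on the backs of male C57BL/6JNarl mice, which the study's methods give as 6 weeks old. All wounds received Pluronic F127 gel once a day under a dressing, and the comparison was between gel alone (P-F127, the sham group) and gel that held 10 µM capsaicin (CAP), the pungent compound of chili peppers and an agonist of the ion channel TRPV1. Wounds were taken with the skin around them at day 3 and day 6, and 3 libraries were made from each treatment at each day, 12 in all. Since each mouse carried 2 wounds and the sources do not say which libraries share a mouse, n counts libraries and the p-values measure only the spread between them. Unwounded skin was not analysed here, so no value below is relative to intact tissue.

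The response to low oxygen runs through the hypoxia-inducible factors. Their alpha subunits, HIF-1α (Hif1a) and HIF-2α (Epas1), are made all the time but are hydroxylated by oxygen-dependent prolyl hydroxylases and then destroyed through the VHL ubiquitin ligase. When oxygen falls, the alpha subunits persist, pair with ARNT and bind DNA at hypoxia response elements with the core letters ACGTG or GCGTG. Their targets shift cells to glycolysis, limit mitochondrial activity, and call for new vessels. A skin wound is short of oxygen after its vessels are cut, until granulation tissue brings new ones. Several of these genes also answer to other signals: Ddit4, for example, is induced by glucocorticoids and by several kinds of cell stress.

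All 10 genes are protein-coding, and their positions in the tables were those of GENCODE M21 on the mouse build GRCm38. Ddit4 (ENSMUSG00000020108) lies at chr10:59949669-59951834 on the minus strand and Adm (ENSMUSG00000030790) at chr7:110627661-110629820 on the plus strand. Ankrd37 (ENSMUSG00000050914) lies at chr8:45996902-46005707 on the minus strand, where it overlaps Ufsp2 and Lrp2bp on the other strand. The others are Slc2a1 (chr4:119108711-119137983), Car9 (chr4:43506966-43513729), Bnip3 (chr7:138890836-138909519), Egln3 (chr12:54178981-54203860), Pgk1 (chrX:106187100-106203699), Ldha (chr7:46841475-46855627) and Pdk1 (chr2:71873224-71903858), with Bnip3 and Egln3 on the minus strand and the rest on the plus strand. Slc2a1, Car9, Bnip3 and Adm overlap annotated antisense genes, and how the counting treated strand is not stated, so reads of the partners may not have been told apart. The values of Pgk1 carry a further uncertainty, since 54.7% of the 31-base stretches of its transcripts also occur in other genes. Of the 6 genes that share them, Pgk1-rs7 shares the most. The shares were 20.3% for Bnip3 and 19.6% for Ldha, and under 1% for the other 7 genes.

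The letters of a hypoxia response element could be looked up next to each gene. RefSeq windows from 250 bases before to 50 bases after the transcription start (build GRCm38.p6) were found for 10 of 10 genes, with 12 windows in all because Ldha and Pdk1 have more than 1 start. Upstream here means before the RefSeq start, which was not always the M21 gene start. The windows of Ankrd37 and Ldha and the later window of Pdk1 lie inside the M21 gene spans given above. Those of Ddit4, Slc2a1, Car9 and Bnip3 reach past the M21 start into the gene with part of their upstream bases. The core ACGTG, searched on both strands, was in the windows of 8 genes and GCGTG in those of 7, and at least one of them was in 11 of the 12 windows. Over all 32851 windows of the same length, 19.6% held ACGTG, 32.4% held GCGTG and 43.8% held either. The palindrome CACGTG counts as ACGTG on both strands and was present upstream of Bnip3 and Ldha. A match is a description of the letters only, since binding was not measured. For the 3 genes on which the results below turn, the whole upstream window outside the gene's own M21 exons is shown 5′ to 3′ on the gene's strand, with the matched letters of either strand in capitals: Ddit4 at chr10:59951835-59952020, Ankrd37 at chr8:45999868-46000100 and Adm at chr7:110627407-110627656.
Ddit4: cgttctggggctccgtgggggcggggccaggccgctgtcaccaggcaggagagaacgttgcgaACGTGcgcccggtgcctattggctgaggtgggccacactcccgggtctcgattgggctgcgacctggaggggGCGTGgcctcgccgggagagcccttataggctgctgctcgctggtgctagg
Ankrd37: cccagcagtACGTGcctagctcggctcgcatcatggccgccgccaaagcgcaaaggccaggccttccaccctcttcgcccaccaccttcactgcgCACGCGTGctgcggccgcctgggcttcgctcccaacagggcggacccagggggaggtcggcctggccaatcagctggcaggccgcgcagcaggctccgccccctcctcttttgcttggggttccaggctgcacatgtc
Adm: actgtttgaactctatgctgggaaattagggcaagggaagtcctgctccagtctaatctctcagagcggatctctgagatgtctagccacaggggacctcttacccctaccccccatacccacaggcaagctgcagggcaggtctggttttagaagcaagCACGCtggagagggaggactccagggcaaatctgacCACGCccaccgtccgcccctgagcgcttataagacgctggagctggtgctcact
Ddit4 thus holds ACGTG at position -187 and GCGTG at -115, counted from the RefSeq start. Ankrd37 holds ACGTG at -241 and overlapping matches to GCGTG on the 2 strands at -155 and -152, with a further ACGTG at -6 inside the bases left out. Adm holds only GCGTG, on the other strand, at -90 and -54. For the other 7 genes 30 bases around the nearest match that lies wholly upstream of the RefSeq start are shown, to compare the letters that flank the core: Slc2a1 at chr4:119108695-119108724, Car9 at chr4:43506994-43507023, Bnip3 at chr7:138909526-138909555, Egln3 at chr12:54204088-54204117, Pgk1 at chrX:106186955-106186984, Ldha at chr7:46845756-46845785 and Pdk1 at chr2:71873132-71873161.
Slc2a1: gagtcccgccccggACGTGctccccaggcc
Car9: tcctatttccgatgCACGTacagcccgtcc
Bnip3: tgggctccgccgccGCGTGcgtcccgcccc
Egln3: catgtgcatctcagACGTGagatccaggtt
Pgk1: acaaatggaagtagCACGTctcactagtct
Ldha: CACGTGggttcccgCACGTccgctgggctc
Pdk1: ccccgcctacatggGCGTGtctttaaccag

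Expression was given by the authors as TPM, which scales each library to one fixed total and corrects for transcript length, so levels of different genes can be compared. This holds less well for genes that share stretches with others, such as Pgk1, Bnip3 and Ldha. TPM carries no read counts, and the depth of the libraries is unknown. Across genes, Pearson's r of log2(TPM + 0.1) was 0.985 to 0.989 between libraries of a group and 0.979 to 0.989 between libraries of different groups, which describes the libraries and treats genes as points, not as replicates. Each library had 18533 to 19325 genes at 0.3 TPM or more. Skin cell markers were present throughout, with 6 keratinocyte markers summing to 29432 to 96278 TPM and 5 fibroblast markers to 10311 to 26002 TPM per library, and none of the marker genes was at 0 in all libraries. A gene was tested in a comparison of 2 groups where its mean was at least 0.3 TPM in both. For the difference between the CAP effects that mean was asked of any group, and over both days of the 6 libraries of each treatment. The test was limma on log2(TPM + 0.1), and a gene passed the threshold if the unadjusted p was under 0.05 and the difference was at least 2-fold. Differences are given on that log2 scale. All 10 genes passed the expression filter in all 6 comparisons.

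The 10 genes were all clearly expressed, at very different levels. Ldha, which turns pyruvate into lactate, was the most abundant, with 688 to 1155 TPM over the 12 libraries and a mean of 954 TPM. Pgk1, the glycolytic enzyme that makes the first ATP of the pathway, followed with a mean of 464 TPM, and the glucose transporter Slc2a1 (GLUT1) with 196 TPM. Egln3, the inducible prolyl hydroxylase that feeds back on HIF, averaged 139 TPM and the mitophagy receptor Bnip3 121 TPM. Ddit4 (REDD1), a brake on the growth kinase mTORC1, averaged 75.8 TPM and Adm, the precursor of the vasodilator adrenomedullin, 46.4 TPM. The lowest were Pdk1, Ankrd37 and Car9. Pdk1, the kinase that inhibits pyruvate dehydrogenase, averaged 33.8 TPM. Ankrd37, a small ankyrin repeat protein known as a HIF target, averaged 15.0 TPM, and Car9, the membrane carbonic anhydrase that handles acid from glycolysis, 9.35 TPM. The genes also differed in how much they moved: the highest library stood 7.98-fold above the lowest for Adm, 4.23-fold for Ankrd37 and 3.94-fold for Car9, but 1.68-fold for Ldha and 1.93-fold for Ddit4.

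**Figure D1:**
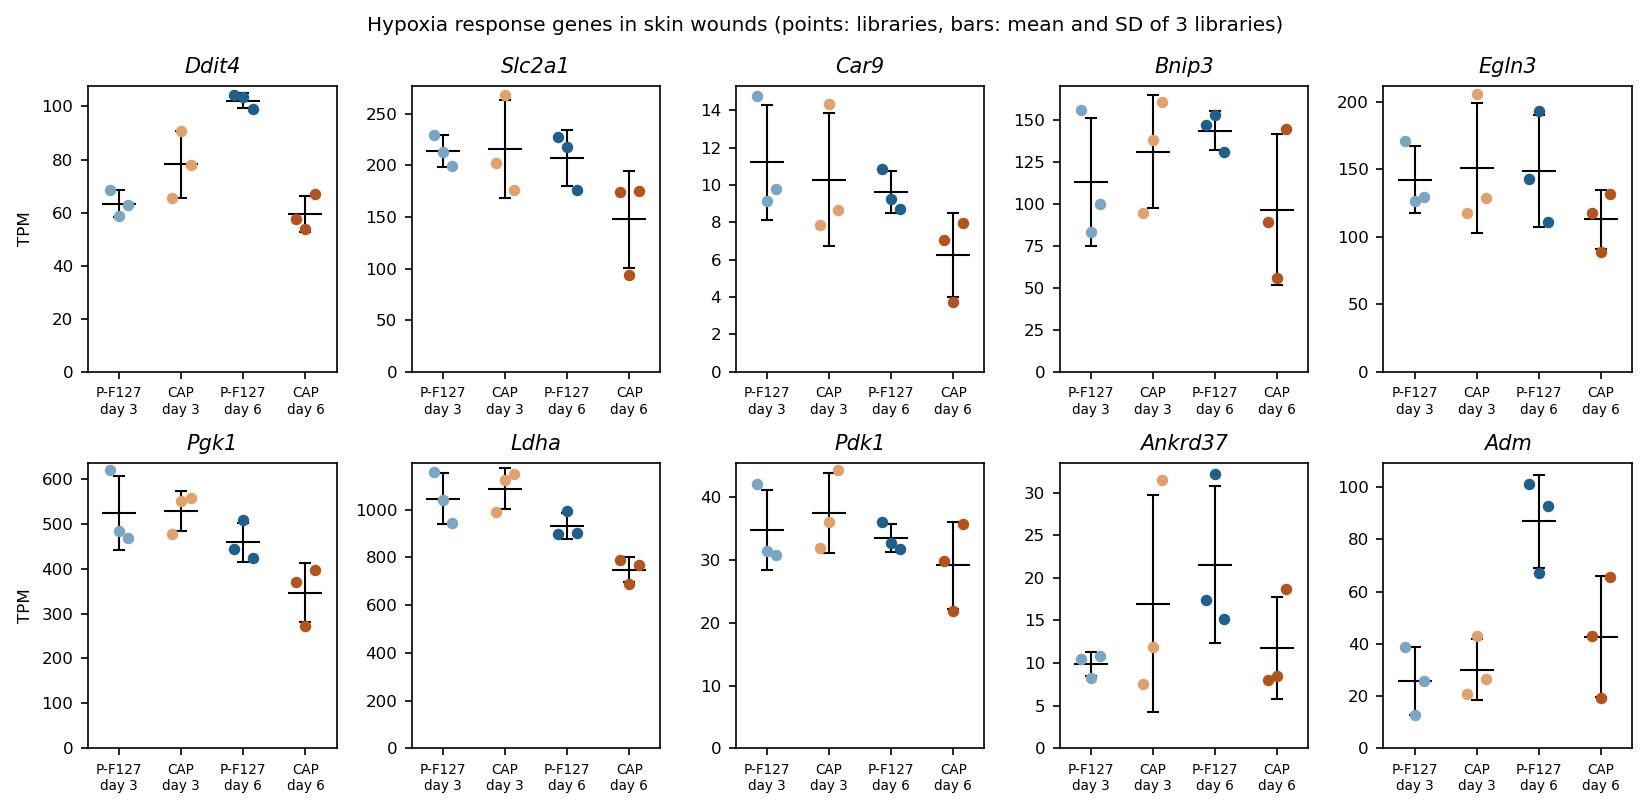
TPM of the 10 hypoxia response genes (vertical axes from 0, 1 panel per gene) in the 4 groups, with 1 point per library and bars for the mean and SD of 3 libraries. In the Ddit4 panel the 3 sham wounds of day 6 lie at 98.9 to 104 TPM, above all 9 other libraries, and in the Adm panel they lie at 67.0 to 101 TPM, above all the others as well.

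The order of the 4 groups was much the same for most of the genes. CAP-treated wounds of day 6 had the lowest group mean, on the log2 scale, for 8 of the 10 genes, the exceptions being Ankrd37 and Adm, which were lowest in sham wounds of day 3. For Slc2a1, Car9, Pgk1 and Ldha the CAP-treated wounds of day 6 lay below the next group without overlap, while the 3 groups above them overlapped with their neighbours. For Slc2a1 the gap was narrow, from 175.3 TPM in CAP-treated to 176.6 TPM in sham wounds of day 6. For Car9 the CAP-treated wounds of day 6 reached 7.98 TPM and so overlapped those of day 3, which began at 7.88 TPM. Ddit4 and Adm showed the reverse picture, with the sham wounds of day 6 apart at the top and the other 3 groups overlapping. For Bnip3, Egln3, Pdk1 and Ankrd37 each group overlapped with its neighbour in the order.

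Single libraries moved across many of the genes at once. CAP-treated replicate 2 of day 6 had the lowest value of all 12 libraries for 8 of the 10 genes, and a summed level of 1305 TPM over the 10 genes, against 1685 to 2505 TPM in the other 11. In the same library the keratinocyte markers summed to 96278 TPM, the highest of the 12 libraries, and the 5 endothelial and 5 neutrophil markers to 66.3 and 278 TPM, the lowest of the 12. Replicate 3 of that group was its highest for 9 of the 10 genes. Among sham wounds of day 3, replicate 1 was the highest for 9 of the 10 genes, with neutrophil markers at 6098 TPM against 1777 and 3573 TPM in the others. The part of cell make-up in these values was not tested, and in whole tissue fewer cells of a type and less RNA per cell cannot be told apart.

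**Figure D2:**
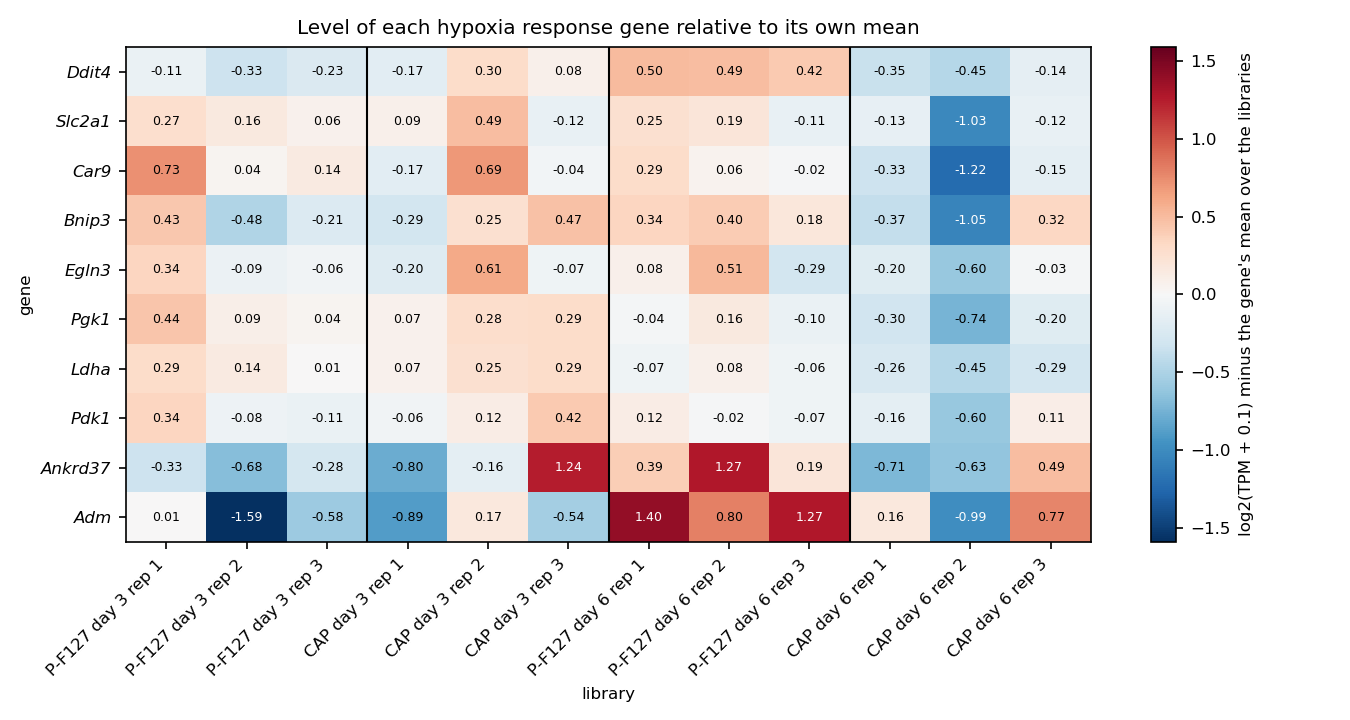
Heat map of log2(TPM + 0.1) minus each gene's mean over the 12 libraries (colour and printed value), with genes in rows, libraries in columns and lines between the groups. The column of CAP-treated replicate 2 of day 6 is negative for all 10 genes, from -0.45 for Ddit4 and Ldha to -1.22 for Car9, and the 3 sham columns of day 6 are at 0.42 to 0.50 for Ddit4 and at 0.80 to 1.40 for Adm.

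At day 3, no hypoxia response gene was past the threshold between CAP-treated and sham wounds (0 of 10, against 1.58% of the 18330 genes tested). None had an unadjusted p under 0.05 in the limma fit, where 1210 of all genes did. Only Slc2a1 and Car9 were on the lower side (2 of 10, against 62.2% of all genes), and the median difference of the 10 genes was 0.08 against -0.05 for all genes tested. Ddit4 came nearest, at 63.0 (58.6 to 68.5) TPM in sham and 78.1 (65.7 to 90.7) TPM in CAP-treated wounds as median and range. Its groups overlapped, and the difference was 0.29 (SE 0.13, unadjusted p = 0.0664, adjusted p = 0.790 by limma with the Benjamini-Hochberg method). With Ddit4 included, all 10 genes overlapped between the groups. Of all genes tested, 2.86% were higher and 8.75% lower without overlap. Under median-ratio scaling, quantile normalization or a joint fit of all libraries 1 of the 10 had an unadjusted p under 0.05 by limma, Ddit4 in each case. Of the 18330 genes tested, 1105, 1130 and 1134 had such a p in either direction, in that order. For Ldha the 95% interval ran from -0.25 to 0.37 and for Pgk1 from -0.31 to 0.36 (log2), whereas for Ankrd37 it ran from -0.61 to 1.67 and for Adm from -0.74 to 1.33, which includes a 2-fold increase.

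At day 6, all 10 genes were on the lower side in CAP-treated wounds, where 65.7% of the 18323 genes tested were. Adm was the single member past the threshold (1 of 10, against 2.34% of all genes past it in the lower direction). An unadjusted p under 0.05 was found for Ddit4, Pgk1, Ldha and Adm (4 of 10, against 12.5% of all genes with such a p in the lower direction). For 6 genes, Ddit4, Slc2a1, Car9, Pgk1, Ldha and Adm, the 3 CAP-treated wounds lay below the 3 sham wounds without overlap (6 of 10, against 18% of all genes). The median difference of the 10 genes was -0.61, against -0.12 for all genes tested. After adjustment over all genes none of the 10 passed 0.05, and neither did any other gene (0 of 18323, of which 3517 had an unadjusted p under 0.05).

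Adm was lower in CAP-treated than in sham wounds of day 6. The sham wounds had 101, 67.0 and 92.8 TPM and the CAP-treated wounds 43.0, 19.3 and 65.8 TPM. All CAP-treated wounds were thus below all sham wounds, although replicate 3 of the first lay close to replicate 2 of the second. The difference was -1.17 (SE 0.42, unadjusted p = 0.0273, adjusted p = 0.230 by limma with the Benjamini-Hochberg method), a level of 0.444 of sham, and the exact permutation test gave p = 0.1, 2-sided, the smallest it can give with 3 against 3 libraries. Without CAP-treated replicate 2 the difference was -0.69, short of 2-fold, and without sham replicate 1 or 3 it was -1.05 and -1.11 with an unadjusted p of 0.0815 and 0.0726 by limma. The receptor of adrenomedullin is built from Calcrl with Ramp2 or Ramp3, and 0 of these 3 genes were past the threshold, with differences of -0.42, 0.01 and 0.38. Calcrl, the shared chain, averaged 8.94 ± 0.814 TPM (SD, n = 3) in sham and 6.78 ± 1.66 TPM (SD, n = 3) in CAP-treated wounds.

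Ddit4 had the smallest p of the 10 genes but a difference under 2-fold. The sham wounds of day 6 had 104.2, 103.5 and 98.9 TPM, and the CAP-treated wounds 57.7, 53.9 and 67.0 TPM. The groups were far apart relative to the spread within each of them. The difference was -0.78 (SE 0.11, unadjusted p = 1.68e-04, adjusted p = 0.205 by limma with the Benjamini-Hochberg method), a level of 0.581 of sham, and it ranked 10 among the 18323 genes by p. The exact permutation test gave p = 0.1, 2-sided, the smallest it can give here. The difference ranged from -0.72 to -0.87 when each library was left out in turn.

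Among the genes of sugar metabolism, Ldha had 898, 994 and 901 TPM in sham wounds of day 6 and 788, 688 and 770 TPM in CAP-treated wounds. Pgk1 had 444, 508 and 424 TPM in sham and 370, 272 and 397 TPM in CAP-treated wounds. Both genes were lower in all CAP-treated libraries, by small steps of -0.32 (SE 0.12, unadjusted p = 0.0344) and -0.42 (SE 0.17, unadjusted p = 0.0400, both by limma). Slc2a1 and Car9 also did not overlap, at -0.54 (SE 0.26, unadjusted p = 0.0743) and -0.68 (SE 0.29, unadjusted p = 0.0507, both by limma), with 95% intervals that included 0. The sham wounds had 228, 218 and 177 TPM of Slc2a1 and 10.9, 9.25 and 8.74 TPM of Car9. Replicate 2 of the CAP-treated wounds set much of the distance. It had 93.8 TPM of Slc2a1, where the others had 175 and 175 TPM, and 3.74 TPM of Car9, where the others had 7.04 and 7.98 TPM. Bnip3 (-0.68), Egln3 (-0.38), Pdk1 (-0.23) and Ankrd37 (-0.90) overlapped between the groups, with unadjusted p of 0.0589 to 0.255 by limma, and their 95% intervals all included 0 as well as, for Bnip3 and Ankrd37, a 2-fold decrease.

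**Figure D3:**
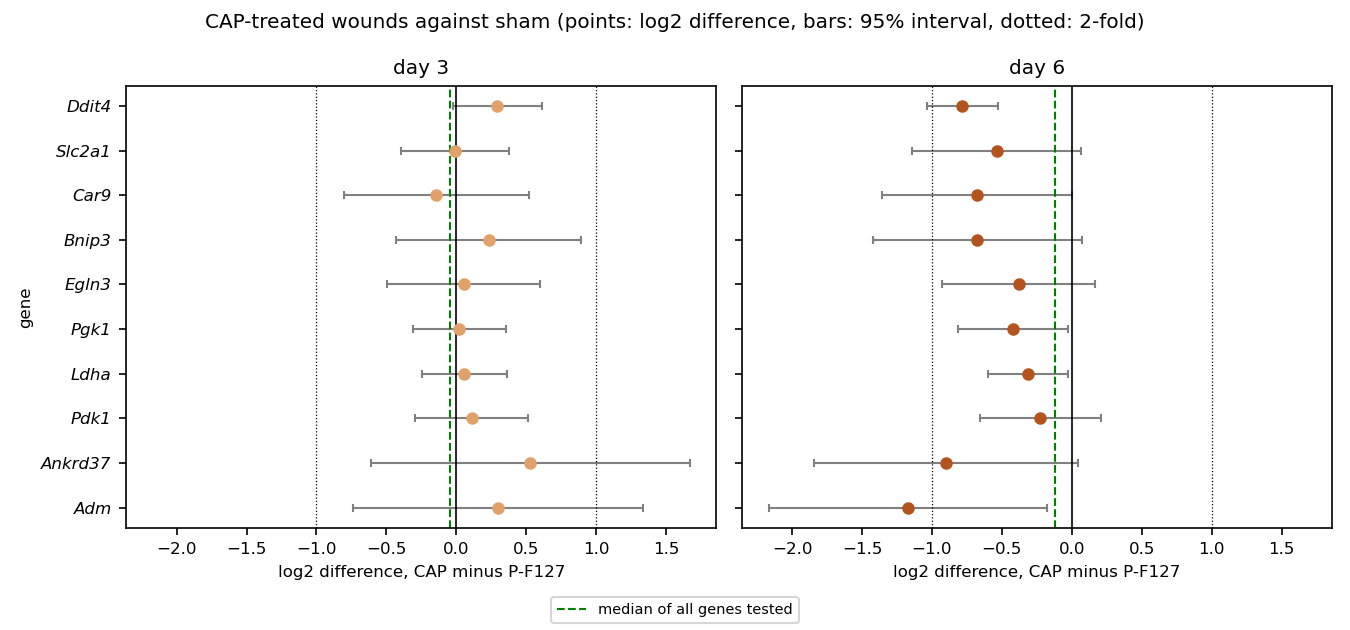
Log2 difference between CAP-treated and sham wounds (horizontal axis) for the 10 genes at day 3 and day 6, with points for the estimate, bars for the 95% interval from limma, dotted lines at 2-fold and a dashed line at the median of all genes tested. At day 3 all 10 intervals include 0, and at day 6 all 10 points lie below 0, from -0.23 for Pdk1 to -1.17 for Adm.

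Because most genes were on the lower side at day 6, the members were also read against that shift. Relative to the median of all genes, the differences ran from -0.11 for Pdk1 and -0.19 for Ldha to -0.66 for Ddit4, -0.78 for Ankrd37 and -1.05 for Adm, so all 10 stayed below it. With libraries rescaled by the median ratio or by quantile normalization (median of all genes -0.0035 and 0), all 10 genes remained on the lower side with a median of -0.49 under either, and 2 of them, Ddit4 and Adm, had an unadjusted p under 0.05 by limma. Of all 18323 genes tested, 3146 and 3268 had such a p in either direction under the 2 scalings. The 2 scalings also turned the split of all genes past the threshold, which was 268 higher and 429 lower without them, 403 higher and 285 lower with the median ratio, and 406 higher and 244 lower with quantile normalization. The values also depended on single libraries. Without CAP-treated replicate 2 the median of the 10 genes was -0.29, none of them was past the threshold and 2 had an unadjusted p under 0.05. Of the 18364 genes tested there, 171 were lower past the threshold and 2294 had an unadjusted p under 0.05 in either direction. Without CAP-treated replicate 3 the median was -0.78, 3 of the 10 were past the threshold, 9 had an unadjusted p under 0.05 and 3 an adjusted p under 0.05 by limma. Of the 18148 genes tested there, 1025 were lower past the threshold, 5262 had an unadjusted p under 0.05 and 1430 an adjusted p under 0.05.

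**Figure D4:**
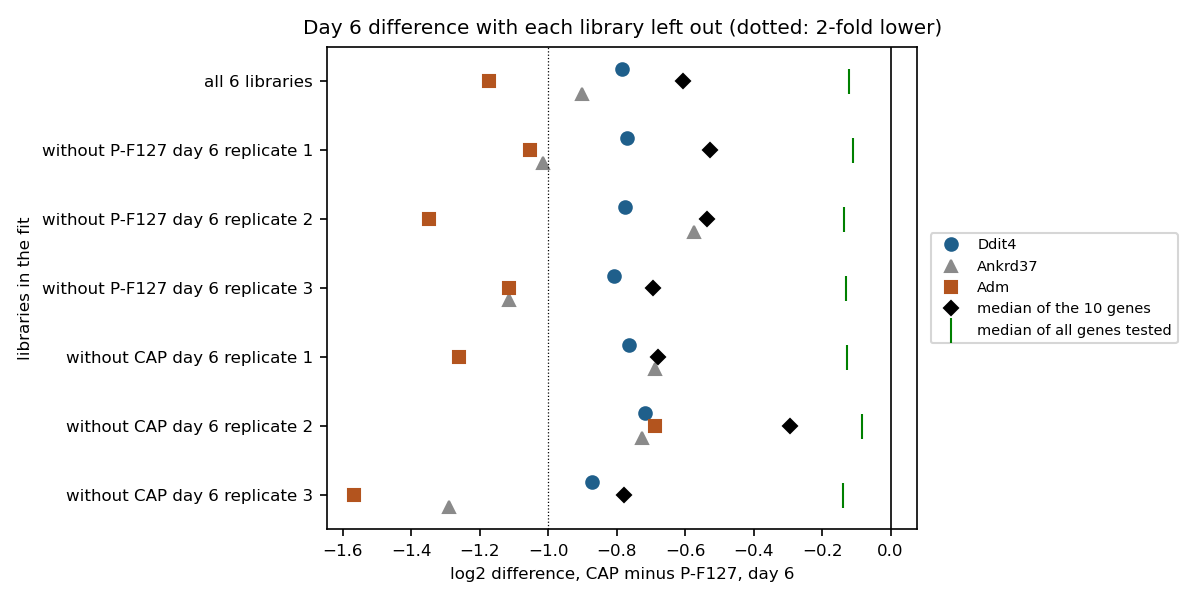
Log2 difference between CAP-treated and sham wounds at day 6 (horizontal axis) for Ddit4, Ankrd37 and Adm, with the medians of the 10 genes and of all genes tested, from all 6 libraries and with each library left out in turn (rows). The points of Ddit4 stay between -0.72 and -0.87, those of Adm run from -0.69 to -1.57, and the median of the 10 genes lies between -0.29 and -0.78.

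Transcripts that mark cell types differed between the treatments as well. At day 6 the 5 endothelial markers were past the threshold for 3 genes, all lower with CAP, and summed to 220 to 300 TPM in sham and 66.3 to 183 TPM in CAP-treated wounds. The 6 keratinocyte markers summed to 29432 to 35908 TPM in sham and 46101 to 96278 TPM in CAP-treated wounds, with 2 of 6 past the threshold, Krt1 and Krt10, both higher. Neutrophil markers (0 of 5 past the threshold) summed to 1728 to 3283 and 278 to 2668 TPM, and macrophage markers (0 of 5) to 6742 to 9821 and 4037 to 9039 TPM in sham and CAP-treated wounds. Erythroid markers (0 of 5 tested past the threshold, all 5 on the lower side) summed to 2113 to 5622 and 716 to 3184 TPM. Fibroblast markers (0 of 5, all 5 on the lower side) summed to 19482 to 26002 and 15557 to 21365 TPM. Past the threshold were also 1 of 6 skeletal muscle markers (lower, sums of 2164 to 3253 and 1624 to 2348 TPM), 1 of 5 adipocyte markers (higher, 275 to 474 and 261 to 489 TPM) and the 1 hair marker tested of 5 (lower, 15.9 to 92.8 and 4.17 to 10.3 TPM). None of these lists had a marker at 0 in all libraries, and their part in the lower values of the hypoxia response genes was not tested.

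Whether the CAP effect differed between the days was tested directly, as the difference of the 2 effects in a fit of all 12 libraries. All 10 genes had a more negative effect at day 6 than at day 3 (against 56.4% of the 20266 genes tested), and 1 was past the threshold, Ddit4 (1 of 10, against 2.73% of all genes in that direction). Ddit4 was 0.29 higher with CAP at day 3 and 0.78 lower at day 6. The difference of the effects was -1.08 (SE 0.17, unadjusted p = 6.57e-05, adjusted p = 0.330 by limma with the Benjamini-Hochberg method), rank 4 of the 20266 genes by p. An exact permutation test of treatment labels within each day gave p = 0.01, 2-sided, where 0.005 is the smallest possible. It takes as its null no CAP effect on either day, so it cannot tell whether the effects are equal. Without CAP-treated replicate 2 of day 3 the difference of the effects was -0.96, just under 2-fold, with an unadjusted p of 1.37e-04 by limma. Ldha was the other gene with an unadjusted p under 0.05 (2 of 10, against 5.88% of all genes in that direction), at -0.37 (unadjusted p = 0.0406 by limma, permutation p = 0.045). Adm and Ankrd37 had larger differences, -1.47 and -1.43, with wide intervals of -2.95 to 0.02 and -2.95 to 0.09. The count past the threshold was 4 without CAP-treated replicate 1 of day 3 or CAP-treated replicate 3 of day 6, where Bnip3, Ankrd37 and Adm joined Ddit4, 3 without sham replicate 1 of day 3 and 2 without sham replicate 2 of day 6. Past it in that direction among all genes were then 700 of 20318, 1115 of 20337, 737 of 20322 and 514 of 20365, in that order. In the same comparison 6 of 6 erythroid markers were past the threshold, all more negative at day 6, and 2 of 6 keratinocyte markers, both more positive. The neutrophil, macrophage and hair lists each had 1 of 5 markers past it, all more negative. The erythroid markers summed to 514 to 753 TPM in sham and 2357 to 2803 TPM in CAP-treated wounds at day 3, and to 2113 to 5622 and 716 to 3184 TPM at day 6. The part of these markers in the values of the hypoxia response genes was not tested.

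Over both days together, no hypoxia response gene was past the threshold (0 of 10, against 1.08% of 18559 genes) and none had an unadjusted p under 0.05 by limma, where 2966 of all genes did. All 10 were on the lower side (against 67.2% of all genes), with a median of -0.21 against -0.08 for all genes and a range from -0.06 for Pdk1 to -0.44 for Adm. This was not a lowering on each day, since 8 of the 10 were on the higher side at day 3 and all 10 on the lower side at day 6. With median-ratio scaling or quantile normalization 9 of the 10 were on the lower side.

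Between day 3 and day 6 the sham wounds differed in a few of the genes. Adm and Ankrd37 rose past the threshold (2 of 10, against 2.13% of the 18368 genes tested in that direction), and the groups of Ddit4, Ankrd37 and Adm did not overlap between the days (3 of 10, against 10.8% of all genes in that direction). Adm went from 38.7, 12.7 and 25.7 TPM at day 3 to 101, 67.0 and 92.8 TPM at day 6. Every day 6 wound was thus well above every day 3 wound, and the difference was 1.87 (SE 0.38, unadjusted p = 0.00154, adjusted p = 0.0566 by limma with the Benjamini-Hochberg method), or 3.67-fold. It stayed between 1.44 and 2.24 when each library was left out. Ankrd37 went from 10.5, 8.23 and 10.9 TPM to 17.4, 32.1 and 15.1 TPM, a difference of 1.05 (SE 0.28, unadjusted p = 0.00656, adjusted p = 0.117 by limma). Replicate 2 of day 6 stood far above the other libraries, and without it the difference was 0.72, short of 2-fold, as it was without replicate 2 of day 3 (0.93).

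Ddit4 was the single member with an adjusted p under 0.05 over time in sham wounds (1 of 10, against 1.14% of all genes in that direction). It had 68.5, 58.6 and 63.0 TPM at day 3 and 104.2, 103.5 and 98.9 TPM at day 6. The libraries of each day were close together and the days well apart. The difference was 0.69 (SE 0.08, unadjusted p = 6.85e-05, adjusted p = 0.0154 by limma with the Benjamini-Hochberg method), or 1.62-fold, which is short of the 2-fold limit. The adjusted p was 0.0166 to 0.0913 when each library was left out, and above 0.05 without replicate 2 or 3 of day 3 or replicate 3 of day 6. In a joint fit of all 12 libraries it was 0.107, and the count of all genes with an adjusted p under 0.05 by limma went from 420 to 0. The remaining 7 genes lay between -0.19 for Car9 and 0.39 for Bnip3, with unadjusted p from 0.111 to 0.849 by limma. The median over the 10 genes was 0.0016, and that of all genes tested was 0.0036. In the same comparison endothelial markers were past the threshold for 3 of 5 genes and erythroid markers for 5 of the 5 tested, all higher at day 6, with summed levels of 81.9 to 114 TPM against 220 to 300 TPM and of 514 to 753 TPM against 2113 to 5622 TPM, and no marker of either list was at 0 in all libraries. Of the 6 keratinocyte markers 1 was lower past the threshold, with sums of 39774 to 58781 TPM at day 3 and 29432 to 35908 TPM at day 6. The same held for 1 of 6 skeletal muscle markers, with sums of 3510 to 5077 and 2164 to 3253 TPM. The remaining lists had no marker past it, with macrophage sums of 3708 to 5320 and 6742 to 9821 TPM. The part of these markers in the higher values of Adm, Ankrd37 and Ddit4 was not tested.

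In CAP-treated wounds no hypoxia response gene was past the threshold over time (0 of 10, against 2.79% of 18202 genes), and 9 of the 10 were on the lower side at day 6 (against 57% of all genes), with a median of -0.45 against -0.05. The unadjusted p was under 0.05 for Ddit4, Pgk1 and Ldha (3 of 10, against 5.91% of all genes in that direction), and the groups of Slc2a1, Pgk1 and Ldha did not overlap (3 of 10, against 9.63%). Ldha had 992, 1121.9 and 1151 TPM at day 3 and 788, 688 and 770 TPM at day 6, all lower, a difference of -0.54 (SE 0.13, unadjusted p = 0.00477, adjusted p = 0.295 by limma). Pgk1 went from 478, 551 and 557 TPM to 370, 272 and 397 TPM, or -0.63 (SE 0.17, unadjusted p = 0.00827 by limma), again with no overlap. Ddit4 had 65.7, 90.7 and 78.1 TPM at day 3 and 57.7, 53.9 and 67.0 TPM at day 6, a difference of -0.38 with 1 day 6 library above the lowest of day 3. Adm was the exception in direction, at 0.41 (95% interval -0.72 to 1.53), with overlapping groups. Among the markers, 2 of 5 neutrophil genes were lower past the threshold at day 6, with summed levels of 1834 to 4821 TPM at day 3 and 278 to 2668 TPM at day 6. Of the 6 keratinocyte markers 2 were higher and 1 lower past it, with sums of 31723 to 60138 and 46101 to 96278 TPM, and 1 of 6 skeletal muscle markers was lower, with sums of 1842 to 4958 and 1624 to 2348 TPM. Their part in the values of the hypoxia response genes was not tested. The sham and CAP comparisons over time use different libraries, but each shares its libraries with the comparisons of treatment above, so the 4 sets of values are not independent of each other.

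**Figure D5:**
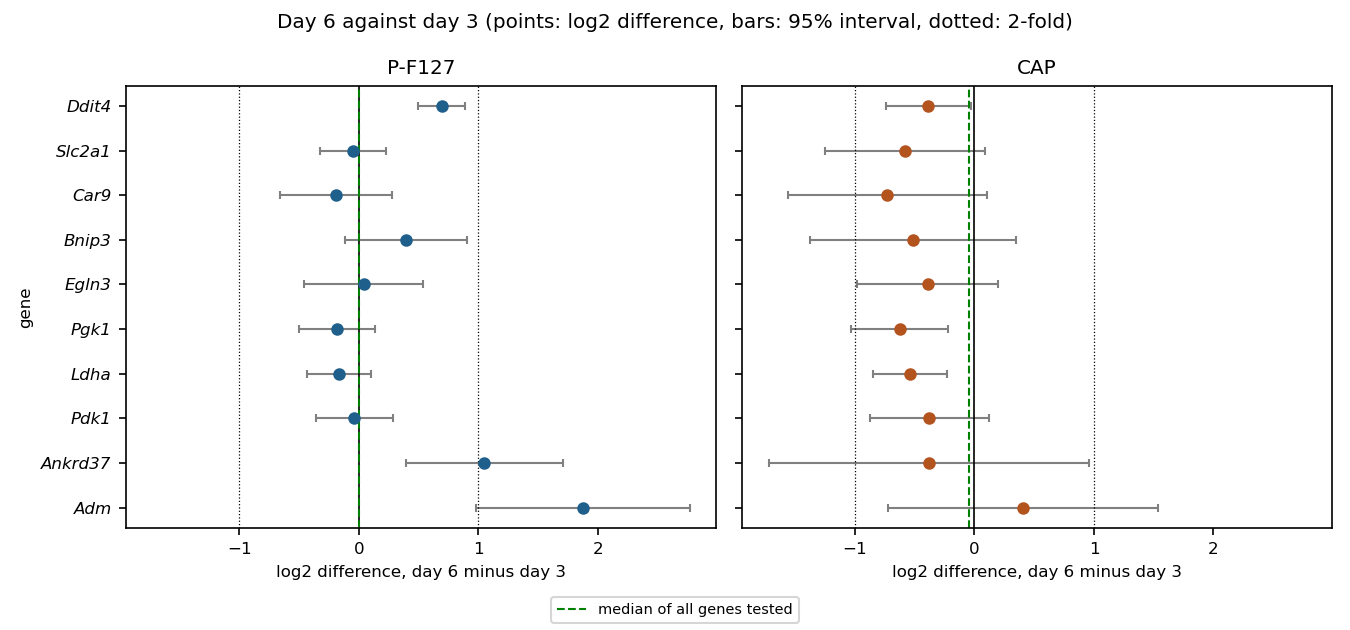
Log2 difference between day 6 and day 3 (horizontal axis) for the 10 genes in sham (P-F127) and CAP-treated wounds, with points for the estimate, bars for the 95% interval from limma, dotted lines at 2-fold and a dashed line at the median of all genes tested. In sham wounds Ddit4, Ankrd37 and Adm lie at 0.69, 1.05 and 1.87 and the others near 0, and in CAP-treated wounds all but Adm lie below 0.

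The sensing machinery was read beside its targets. Of the 11 genes of the HIF pathway itself, 0 were past the threshold between treatments at day 6 (against 3.8% of all genes). On the lower side were 6 of the 11 (against 65.7%), with a median of -0.04 against -0.12 for all genes. Hif1a, the alpha subunit of HIF-1, averaged 203 ± 16.7 TPM (SD, n = 3) in sham and 145 ± 30.2 TPM (SD, n = 3) in CAP-treated wounds, and Epas1, that of HIF-2, 97.2 ± 1.67 and 70.4 ± 15.3 TPM. The groups did not overlap for either gene, at -0.50 and -0.49 (unadjusted p = 0.0192 and 0.0220 by limma). Of the 11 genes, 4 were lower without overlap, against 18% of all genes. Cited2, which competes with HIF for the coactivators CBP and p300, lay on the other side, at 81.2 ± 9.73 TPM in sham and 116 ± 17.1 TPM in CAP-treated wounds (0.51, unadjusted p = 0.00844 by limma). The shared partner Arnt and the degradation factor Vhl were at -0.20 and -0.28, and the hydroxylase genes Egln1, Egln2 and Hif1an at 0.10, -0.04 and 0.10. These are transcripts, and HIF is controlled mainly through the stability of its protein, which was not measured. Over time in sham wounds, Epas1 rose from 45.5 ± 9.04 to 97.2 ± 1.67 TPM (1.11, SE 0.14, adjusted p = 0.0175 by limma with the Benjamini-Hochberg method). It was the 1 of 11 past the threshold, against 2.13% of all genes in that direction. Without replicate 3 of day 3 its difference was 0.96, short of 2-fold. Epas1 is also a gene of endothelium, whose markers were higher in the same comparison as given above, and their part in its level was not tested.

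Other targets of the pathway were counted beside the 10 genes. Of 24 other hypoxia-induced genes, 5 were lower and 0 higher past the threshold with CAP at day 6, 19 were on the lower side, and the median was -0.87. Of all genes tested 2.34% were past the threshold on the lower side and 65.7% were on that side, with a median of -0.12. Among them were Hilpda (-1.82), a lipid droplet protein, Angptl4 (-1.38), a secreted inhibitor of lipoprotein lipase, Vegfa (-1.26), the main growth factor of vessels, and Stc2 (-1.07), a stanniocalcin. Hilpda and Stc2 were named after their values were seen. None passed an adjusted p of 0.05 by limma. Vegfa had 229, 243 and 164 TPM in sham and 80.5, 57.0 and 146 TPM in CAP-treated wounds of day 6, with no overlap. The low values again included replicate 2, and without it 1 of the 24 genes was past the threshold, with Vegfa at -0.95 and a list median of -0.52. The count was 14 of 24 without CAP-treated replicate 3, and 2 and 3 without sham replicates 1 and 2. Among all genes, 1025 of 18148, 253 of 18216 and 338 of 18326 were then lower past the threshold. Without CAP-treated replicate 2 these were 171 of 18364. With median-ratio scaling 4 of 24 were past the threshold and 16 on the lower side, with a median of -0.75. Of all 18323 genes 285 were lower past the threshold with that scaling.

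Of 18 other glycolysis genes, 1 was past the threshold at day 6, the lactate exporter Slc16a3 (-1.18, unadjusted p = 0.0152 by limma), 15 were on the lower side and the median was -0.29, against 2.34% past the threshold on the lower side, 65.7% on that side and a median of -0.12 for all genes tested. Slc16a3 had 101, 113 and 78.4 TPM in sham and 40.4, 25.4 and 74.6 TPM in CAP-treated wounds, without overlap. Without CAP-treated replicate 2, or without sham replicate 2, 0 of the 18 were past the threshold. In CAP-treated wounds over time it was the single one past the threshold too (against 1.52% of all genes in the lower direction). It was at -1.06, and short of the threshold without any 1 of 4 of the 6 libraries. There 16 of 18 were on the lower side (against 57% of all genes), with a median of -0.48 against -0.05. In sham wounds over time 0 of 18 were past it (against 3.75% of all genes) and the median was -0.09 against 0.0036. At day 3, 0 of the 18 glycolysis genes and 0 of 10 HIF pathway genes tested were past the threshold between treatments (against 1.58% of all genes). Of the 24 other hypoxia-induced genes 2 were, both higher with CAP (against 0.426% in that direction). These were Plin2 (1.18), which coats lipid droplets, and Cox4i2 (1.08), a subunit of cytochrome oxidase, and 0 of 24 were past it without any 1 library other than CAP-treated replicate 1. Cox4i2 was low at day 3, at 0.256 to 0.933 TPM, and in the day 3 comparison the 5 erythroid markers tested were past the threshold as well, higher with CAP, at 514 to 753 TPM summed over 6 markers in sham and 2357 to 2803 TPM in CAP-treated wounds. Whether they bear on these values was not tested.

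Over time in sham wounds, 3 of the 24 other hypoxia-induced genes rose past the threshold (against 2.13% of all genes) and 0 fell (against 1.61%). The median was 0.36 against 0.0036 for all genes. Cox4i2 rose from 0.393 ± 0.192 to 3.71 ± 0.649 TPM (SD, n = 3, 3.00, adjusted p = 0.0146 by limma with the Benjamini-Hochberg method) and Hilpda from 24.7 ± 7.88 to 89.0 ± 34.1 TPM (1.83, adjusted p = 0.0325). In CAP-treated wounds over the same days 1 of the 24 was past the threshold (against 1.52% of all genes in the lower direction). This was Plin2, which fell by 1.55 on the log2 scale. It was short of the threshold without CAP-treated replicate 2 or 3 of day 3 or replicate 1 or 2 of day 6. The count over time in sham wounds was 5 without sham replicate 1 of day 3 and 2 without replicate 3 of day 3. Among all genes, 540 of 18278 and 377 of 18336 then rose past the threshold. In the test of the difference between the CAP effects, 6 of the 24 were past the threshold, all more negative at day 6 (against 2.73% of all genes in that direction). The median was -0.58 over the list and -0.06 over all genes. The 3 with the smallest p were Vegfa (-1.45), Hilpda (-3.08) and Plin2 (-2.12), with unadjusted p of 0.0110 to 0.0130 by limma. The count was 9 without sham replicate 1 of day 3 or CAP-treated replicate 3 of day 6, 3 without sham replicate 3 of day 3, and 4 to 8 without any other library. For the first 3 of these fits, 737 of 20322, 1115 of 20337 and 458 of 20321 of all genes were past the threshold in that direction.

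Adm had the widest range of its 4 group means, 1.87 on the log2 scale. Among 16169 genes that averaged 1 TPM or more, the 5 whose pattern over the 12 libraries was nearest to it, by the root-mean-square difference of centred log2(TPM + 0.1), were Cyp1b1 (0.27), Muc2 (0.33), Cpxm1 (0.36), Kcne4 (0.37) and Ctla2a (0.38). Cyp1b1 averaged 14.3 ± 6.48 TPM in sham and 14.5 ± 5.43 TPM in CAP-treated wounds at day 3, and 38.4 ± 5.05 and 19.1 ± 9.69 TPM at day 6 (SD, n = 3). The other 9 hypoxia response genes were farther away. The closest, Ddit4, ranked 572 at a difference of 0.69, and the farthest, Ldha, ranked 10686 at 0.96.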

How the data were processed

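RNA-seq of 12 wound libraries was analysed, 3 in each of 4 groups, and groups were taken from the sample labels. The authors deposited TPM per gene for each library. Per the labels and methods they used a SureSelect XT HS2 mRNA kit, paired-end reads, bcl2fastq, Trimmomatic 0.36, the build mm10 and StringTie, and no aligner, annotation release or strand setting was named in the sources read. TPM gives no read counts, so depth and counting error are unknown. The members and the other lists were chosen with earlier results of these data known.

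Differences were tested with limma 3.58.1 (trend, R 4.3.3) on log2(TPM + 0.1), with Benjamini-Hochberg adjustment over all genes tested, and 95% intervals. Genes tested averaged 0.3 TPM or more in each group of a 2-group comparison. For the difference between days this was asked of any group, and for both days together of the libraries of each treatment. Each 2-group comparison used its own 6 libraries, and the difference between days and the mean over both days used all 12. The test was tested on simulated data with 200 changed genes. Exact permutation tests were 2-sided over libraries. Named were all 10 members, for each comparison up to 3 genes past the threshold with the smallest p from each other pathway list, the HIF and adrenomedullin receptor genes by level, and the 5 genes nearest to the member with the widest range of group means. Marker genes were used as summed TPM. Values of 1 gene that the rule names are not reported here. Promoter windows were RefSeq's and gene models GENCODE M21, both on GRCm38, in which 55141 of the 55487 listed IDs were found. Figures were drawn with Python 3.11.15 and matplotlib 3.10.9. Alternatives were other pseudocounts (1 and 0.01 TPM), no expression filter, median-ratio scaling, quantile normalization, a joint fit, the replicate number as a block, and each library left out.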

Additional observations from a re-analysis of the deposited data

Results flagged for a closer look

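Genes were flagged where the effect of CAP at day 6 and that at day 3 differed in a test of the difference itself. The limit was an unadjusted p under 0.05 with at least 2-fold by limma, which 4.9% of all genes passed (994 of 20266). Kept were the members and, from each other pathway list, up to 3 genes with the smallest p. This gave 4 genes, 1 member and 3 of the 6 past the threshold among the 24 other hypoxia-induced genes. None of the 4 passed after Benjamini-Hochberg adjustment. Ddit4, the brake on mTORC1, had a difference of effects of -1.08 on the log2 scale. Its CAP-treated wounds were at 65.7, 90.7 and 78.1 TPM at day 3 and 57.7, 53.9 and 67.0 TPM at day 6, against 68.5, 58.6 and 63.0 and then 104.2, 103.5 and 98.9 TPM in sham wounds. Vegfa, the vessel growth factor, had a difference of -1.45, with 100, 150 and 144 TPM in CAP-treated and 167, 96.4 and 90.4 TPM in sham wounds at day 3. Hilpda had a difference of -3.08, and its day 3 values in CAP-treated wounds were spread from 21.8 to 139 TPM. Plin2 had a difference of -2.12, with 299, 788 and 1176 TPM in CAP-treated wounds at day 3 and 178, 133 and 470 TPM at day 6. Both lipid droplet genes were highest, among day 3 wounds, in CAP-treated replicate 3. The causes of these differences were not tested.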

How the results depend on the processing

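All 10 genes kept their direction at day 6 under every alternative run, and no gene that was past the threshold changed direction. Differences short of the threshold did change sign with 1 library left out: at day 3 Adm went from 0.30 to -0.14 without sham replicate 2 and Ankrd37 from 0.53 to -0.04 without CAP-treated replicate 3, and Ankrd37 went from -0.19 to 0.04 over both days without sham replicate 2 of day 6 and from -0.38 to 0.19 over time in CAP-treated wounds without replicate 3 of day 3. Smaller differences of other members also changed sign at day 3, over both days and over time in sham wounds. Of the values of single genes, 396 kept their side of the threshold under another setting, 2 passed it newly and 2 no longer did, and with 1 library left out these counts were 462, 12 and 6. The cause of these changes was not tested. With a pseudocount of 1 TPM in place of 0.1 TPM, the genes past the threshold among all genes went from 290 to 154 for CAP at day 3, from 697 to 385 at day 6, from 994 to 580 for the difference between days, from 200 to 74 over both days, from 688 to 405 over time in sham wounds and from 507 to 299 over time in CAP-treated wounds. With no expression filter they were 568 at day 3, 400 over both days, 1150 over time in sham and 835 over time in CAP-treated wounds. With each library left out in turn the ranges were 204 to 510, 311 to 1483, 657 to 1777, 148 to 289, 641 to 873 and 382 to 886 in the same order. Members past the threshold were 0 to 3 lower at day 6 (1 with all libraries), 0 to 4 lower in the difference between days (1) and 1 to 2 higher over time in sham wounds (2). The last was 1 with a pseudocount of 1 TPM (Ankrd37 at 0.99) and 1 in the joint fit of all libraries. The split of genes past the threshold also moved with scaling, at day 3 from 78 higher and 212 lower to 101 and 160 with quantile normalization, and over both days from 33 and 167 to 47 and 128 with the median ratio and 57 and 109 with quantile normalization.

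The groups share replicate numbers. Correlations of the deviations of same-numbered libraries were 0.032, 0.117 and 0.111 at day 6 and -0.17, 0.033 and 0.02 at day 3. Over time they were 0.026, 0.043 and 0.03 in sham and 0.033, -0.001 and 0.289 in CAP-treated wounds. Differently numbered libraries had -0.103 to -0.004 at day 6 and -0.188 to 0.178 at day 3. Over time such pairs had -0.038 to 0.011 in sham and -0.274 to 0.25 in CAP-treated wounds. Whether a number marks a shared mouse or batch was not tested. With the replicate number as a block, 3 members were past the threshold in the difference between days (1 without it), with Adm at -1.47 and Ankrd37 at -1.43 joining Ddit4. Of all 20266 genes, 626 were past it in the same direction with the block. The number of members past the threshold was the same with the block in the other comparisons. Over time in sham wounds Adm had an adjusted p of 0.0268 with the block (0.0250 to 0.191 over all alternatives), and over both days 164 of all genes had an adjusted p under 0.05 by limma, against 0 without the block. The counts of the other lists with each library left out were chosen after seeing the data.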
